A study of Mus musculus with 6 samples.

Results

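The tubulin isotypes are 10 genes, 7 of alpha-tubulin (Tuba1a, Tuba1b, Tuba1c, Tuba3a, Tuba3b, Tuba4a and Tuba8) and 3 of beta-tubulin (Tubb3, Tubb5 and Tubb6), chosen by symbol from the 23889 genes listed in every table. Their levels were read in 6 mouse mRNA libraries, and the share of each alpha isotype was taken from the sum of the 7 alpha levels of the same library. The study profiled androgenetic haploid embryonic stem cell lines (AG-haESCs, 3 libraries), cells labelled round sperm (1 library) and embryonic stem cells labelled ESC XX (2 libraries). The haploid lines were A129-2 (replicate 1), AOS-14 (replicate 2) and AOS-16 (replicate 3). They and the round sperm library carry the strain label F1 hybrid C57BL/6 X DBA/2. The AG-haESC lines came from embryos made by injecting a sperm head into an enucleated oocyte. They were grown over feeders in knockout serum replacement and 2i, which blocks the kinases MEK and GSK3, and haploid cells in G0/G1 were sorted after Hoechst staining. ESC XX cells had an Oct-GFP (C57) background, grew in serum containing LIF and 2i, and were harvested following a feeder-free step with no sort named. The round sperm label carries the same culture and sorting text as the AG-haESC labels. Each AG-haESC line gave 1 library, and nothing says that the ESC XX libraries came from separate cultures.

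Tubulin is a dimer of 1 alpha and 1 beta chain, and dimers join end to end into the protofilaments of microtubules. Mammals carry a family of alpha and a family of beta genes whose proteins differ mainly in an acidic tail at the C-terminus, where enzymes add and remove tyrosine, glutamate and glycine. In round spermatids microtubules form the manchette that shapes the head and the axoneme of the growing tail, whereas in dividing stem cells they turn over in the interphase network and the spindle.

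Tuba3a and Tuba3b, alpha genes known for expression in the testis, were the leading alpha isotypes of round sperm, and Tuba1b, the alpha gene used by most dividing cells, led in every embryonic stem cell library. The sequences before the starts of these 3 genes are shown because they stand on opposite sides of that switch. Each is the 250 bases before the start site in RefSeq (GRCm38.p6), 5′ to 3′ on the strand of the gene. Capitals mark CCAAT in Tuba3a and Tuba3b, and in Tuba1b they mark CCGCCC, which is GGGCGG read from the other strand. Tuba3a lies on the minus strand at chr6:125286082-125286331, Tuba3b on the plus strand at chr6:145615713-145615962 and Tuba1b on the minus strand at chr15:98934391-98934640.
Tuba3a: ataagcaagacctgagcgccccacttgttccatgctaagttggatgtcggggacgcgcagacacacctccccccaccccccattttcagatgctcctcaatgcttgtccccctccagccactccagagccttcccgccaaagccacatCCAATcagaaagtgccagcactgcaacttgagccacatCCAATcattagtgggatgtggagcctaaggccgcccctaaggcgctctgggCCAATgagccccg
Tuba3b: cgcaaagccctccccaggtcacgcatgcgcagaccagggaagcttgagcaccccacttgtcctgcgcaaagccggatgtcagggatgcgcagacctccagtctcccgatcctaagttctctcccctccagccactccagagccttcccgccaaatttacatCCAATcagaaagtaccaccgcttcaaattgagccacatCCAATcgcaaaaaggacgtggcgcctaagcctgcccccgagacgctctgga
Tuba1b: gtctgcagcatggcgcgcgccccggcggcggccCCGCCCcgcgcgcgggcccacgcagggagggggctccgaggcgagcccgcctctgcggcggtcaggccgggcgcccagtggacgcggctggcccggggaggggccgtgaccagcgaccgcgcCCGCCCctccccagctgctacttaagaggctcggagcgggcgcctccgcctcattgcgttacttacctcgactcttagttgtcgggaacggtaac
CCAAT was searched on both strands in the table's windows of 300 bases, from 250 before to 50 after each start. It occurred 3 times before Tuba3a, starting at positions -102, -64 and -13, and 2 times before Tuba3b, at -89 and -51. The pair farthest from the start was 38 bases apart in both genes. Of 32851 mouse promoters in the same windows, 37.4% held CCAAT, 11.7% held it 2 or more times and 3.37% held it 3 or more times. The Tuba1b window held no CCAAT and GGGCGG 2 times, at -217 and -95, a motif that 35.7% of promoters held at least once and 19.5% at least 2 times. GGGCGG also occurred before Tuba3a, at -34. CCAAT also occurred 2 times in the Tubb5 window and 1 time each in those of Tuba1a, Tuba1c and Tubb3. The Tuba8 window held neither motif, and neither was confined to 1 side of the switch. In a global alignment, the Tuba3a and Tuba3b windows shared 61.1% of bases, and Tuba1b shared 44.7% with Tuba3a and 44.8% with Tuba3b. Pairs of Tuba1a, Tuba1b and Tuba1c windows shared between 45.8% and 49.4%, and no background of other promoter pairs was computed. The longest run common to Tuba3a and Tuba3b was 33 bases, starting at -142 and -129. GENCODE starts its Tuba3b transcript 206 bases and its Tuba1b transcript 175 bases upstream of the RefSeq starts, so much of both windows is transcribed in that annotation. The GENCODE start of Tuba3a lies 39 bases downstream of the RefSeq start, and the positions given here are counted from the RefSeq starts. These matches describe letters in a window. Promoters were found for 9 of the 10 members.

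Levels are FPKM, fragments scaled to transcript length and library depth, estimated by the authors. The lowest estimated depth was 9.19 M (mega) fragments, in A129-2, the highest was 19.8 M, in AOS-14, and round sperm had 10.9 M. The FPKM of all genes summed to 1239220 in round sperm and to between 507556 and 707325 in the other libraries, so differences are also given after each library was rescaled to the same total (TPM). Genes of short RNAs took 13.7% of the FPKM in AOS-14, 6.48% in round sperm and under 0.2% in the other AG-haESC lines. A value of 0 can be a failed estimate here, since the translation factor Eef1a1 was listed at 0 in all 3 AG-haESC lines and at 6397 and 6462 FPKM in ESC XX; every member had a value above 0 in every library. The labels were checked against 8 spermatid markers (Prm1, Prm2, Tnp1 and others), which summed to 38460 FPKM in round sperm and to between 1.61 and 4.51 FPKM in the stem cell libraries, with Prm1 listed at 0 in all of them but AOS-14. The 8 pluripotency markers summed to between 3972 and 5388 FPKM in the stem cell libraries and to 33.7 FPKM in round sperm. The 6 spermatocyte markers summed to 1492 FPKM in round sperm, of which Pgk2 alone gave 1230 FPKM. The part of these markers in its tubulin levels was not tested.

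**Figure D1:**
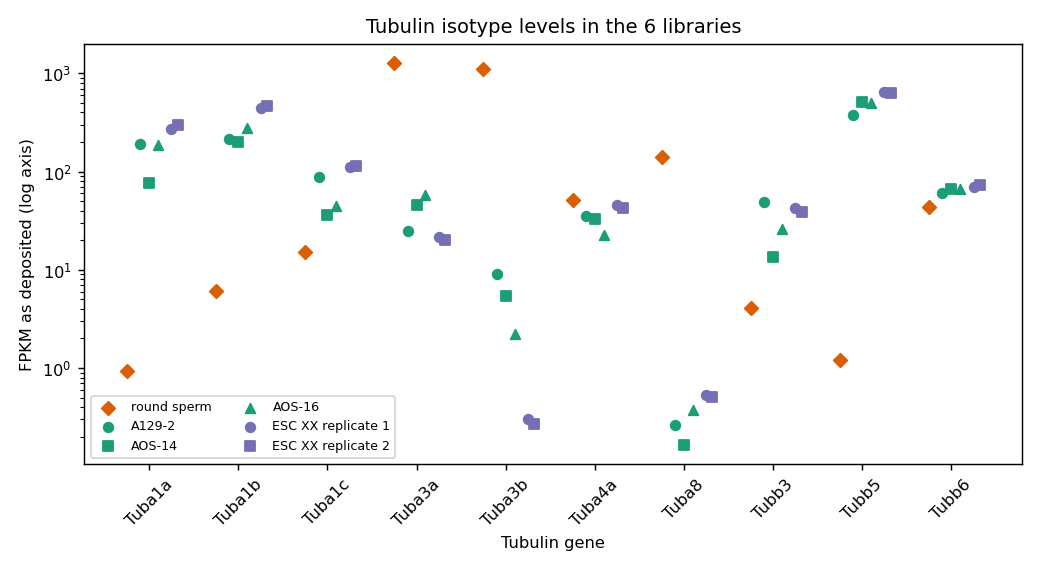
FPKM of the 10 tubulin isotypes (log axis) in each of the 6 libraries, with 1 point per library and colours for the 3 groups. Tuba3a, Tuba3b, Tuba4a and Tuba8 have their highest point in round sperm, and the other members have their lowest point there.

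AG-haESCs were compared with round sperm to ask how the transcripts of a stem cell line with a sperm genome differ from those of the male germ cell. Of the 10 members, 3 were called higher in AG-haESCs (Tuba1a, Tuba1b and Tubb5), 3 were called lower (Tuba3a, Tuba3b and Tuba8) and 4 were not called. The call rule was a limma adjusted p under 0.05, with Benjamini-Hochberg adjustment over the 15938 genes tested, and a log2 difference of at least 1. It took in 61.9% of all genes tested, 22.8% as higher and 39.1% as lower, so the number of members called lies near the background and the description rests on which members moved and how far. Without overlap at any size stood 90.9% of genes. All 10 members passed the filter of 1 FPKM in at least 1 of the 4 libraries, Tuba8 through round sperm alone and Tuba1a through the AG-haESC lines alone. The filter thus set the direction of Tuba8 and of Tuba1a. The median difference over all genes was -0.49 in FPKM and 0.40 after rescaling, which moved the share of calls that were higher from 36.8% to 52.1%. After rescaling, 4 members were called higher and 3 lower, against 58.7% of all genes called. Since round sperm has 1 library, the error of each difference comes from the spread between the 3 lines, with 2 residual degrees of freedom. That spread was moderated by limma with the variances of all genes tested, so the p-values do not rest on each gene alone. In bulk samples, fewer cells of a type and less RNA per cell cannot be told apart.

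Tuba1a, Tuba1b and Tuba1c sit on chromosome 15 and encode nearly identical proteins. Tuba1a, prominent in developing neurons, stood at 192, 76.7 and 186 FPKM in A129-2, AOS-14 and AOS-16, at 274 and 295 FPKM in ESC XX and at 0.925 FPKM in round sperm. Every stem cell library lay above round sperm, and AOS-14 was the lowest of them. The AG-haESC mean of 152 ± 65.0 FPKM (SD, n = 3) was 164-fold above round sperm, a log2 difference of 6.20 ± 0.74 (SE; limma, adjusted p = 0.0109). Without AOS-16 the difference was 5.99 and the call was lost (limma, adjusted p = 0.0535).

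Tuba1b measured 213, 200.3 and 280.2 FPKM in the 3 lines, 447 and 462 FPKM in ESC XX and 6.07 FPKM in round sperm. No stem cell library came near the round sperm level. The mean of the lines, 231 ± 42.9 FPKM, was 38.1-fold higher, a log2 difference of 5.02 ± 0.26 (limma, adjusted p = 0.00226).

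Tuba1c, another widely expressed alpha gene, measured 87.8, 36.3 and 44.95 FPKM in the lines, 110.4 and 113 FPKM in ESC XX and 15.3 FPKM in round sperm. It was the most abundant of the Tuba1 genes in round sperm and the least abundant in every stem cell library. All lines were above round sperm, but their spread was wide, and the log2 difference of 1.71 ± 0.65 did not pass (limma, adjusted p = 0.112). It passed with quantile normalization, at 2.72 (limma, adjusted p = 0.0403).

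Near-identical copies can share reads, and how the authors split such reads is not given in the sources used here. In GENCODE coding sequences (GRCm38), Tuba1a and Tuba1b were 98.3% identical, Tuba1a and Tuba1c 97.1%, and Tuba1b and Tuba1c 97.9%. Between 58.4% and 77.4% of their 50-base windows occurred in the partner, so the division among the Tuba1 genes is uncertain. Their sum is less exposed to it. That sum was 493, 313 and 512 FPKM in the lines, 832 and 870 FPKM in ESC XX and 22.3 FPKM in round sperm, a 19.7-fold difference between the AG-haESC mean and round sperm in FPKM and 43.4-fold in TPM.

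Tuba3a measured 1273 FPKM in round sperm, 24.6, 45.2 and 57.7 FPKM in A129-2, AOS-14 and AOS-16, and 21.5 and 20.1 FPKM in ESC XX. It was the most abundant alpha transcript of round sperm and remained readily measured in all stem cell libraries. Round sperm exceeded the AG-haESC mean of 42.5 ± 16.7 FPKM 29.95-fold, a log2 difference (AG-haESC minus round sperm) of -4.95 ± 0.61 (limma, adjusted p = 0.0117). Without AOS-14 it was -5.04 and no longer called (limma, adjusted p = 0.0671).

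Tuba3b measured 1117 FPKM in round sperm, 9.16, 5.37 and 2.22 FPKM in the lines, and 0.306 and 0.267 FPKM in ESC XX. Round sperm was highest, the AG-haESC lines came next and ESC XX was lowest, with no overlap between groups. Its level in round sperm was 200.1-fold the AG-haESC mean of 5.58 ± 3.48 FPKM, with a log2 difference of -7.56 ± 0.82 (limma, adjusted p = 0.00915). Without AOS-14 it was -7.61 and no longer called (limma, adjusted p = 0.0608). Tuba3a and Tuba3b were 97.0% identical in coding sequence and shared 33.1% of 50-base windows, so their division is also uncertain. Tuba3a made up 53.3% of their sum in round sperm, 72.9%, 89.4% and 96.3% in the lines, and 98.6% and 98.7% in ESC XX. The sum itself was 2390 FPKM in round sperm, 33.8, 50.6 and 59.9 FPKM in the lines, and 21.8 and 20.4 FPKM in ESC XX.

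Tuba8, a divergent alpha isotype known from testis, muscle and brain, measured 142 FPKM in round sperm, 0.260, 0.164 and 0.372 FPKM in the lines, and 0.533 and 0.507 FPKM in ESC XX. In round sperm it came next after Tuba3a and Tuba3b, and it lay near the limit of detection elsewhere, at about 4.93 to 8.21 fragments in the lines and about 18.2 and 19.9 fragments in ESC XX. Round sperm stood 535-fold above the AG-haESC mean of 0.265 ± 0.104 FPKM, and the log2 difference was -6.82 ± 0.14 (limma, adjusted p = 0.000312).

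Tuba4a, the alpha isotype whose gene does not encode the terminal tyrosine, measured 51.6 FPKM in round sperm, 35.1, 33.2 and 22.4 FPKM in the lines, and 45.2 and 42.4 FPKM in ESC XX. It varied least between cell types among the alpha isotypes. The log2 difference was -0.78 ± 0.34 in FPKM and did not pass (limma, adjusted p = 0.147). Its sign depended on the scale, being 0.29 in TPM (limma, adjusted p = 0.557), where the lines at 68.9, 46.9 and 41.0 TPM overlapped round sperm at 41.6 TPM.

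Among the beta genes, Tubb5, the main beta isotype of proliferating cells, measured 379, 517 and 503 FPKM in the lines, 647 and 626 FPKM in ESC XX and 1.201 FPKM in round sperm. It was the most abundant member in every stem cell library and nearly lacking in round sperm. The AG-haESC mean of 466 ± 75.8 FPKM was 388-fold above round sperm, a log2 difference of 7.72 ± 0.26 (limma, adjusted p = 0.000904).

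Tubb6, a beta isotype expressed at low levels in many tissues, measured 59.9, 66.3 and 66.4 FPKM in the lines, 70.4 and 73.8 FPKM in ESC XX and 43.8 FPKM in round sperm. All stem cell libraries were above round sperm by a small margin, and the lines hardly differed from each other. The log2 difference of 0.54 ± 0.11 passed the p threshold (limma, adjusted p = 0.0359) but not the size threshold. It was called in TPM, at 1.61 (limma, adjusted p = 0.0145), and with quantile normalization, at 1.90 (limma, adjusted p = 0.00321).

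Tubb3, the beta isotype used as a marker of neurons, measured 49.4, 13.6 and 26.1 FPKM in the lines, 42.3 and 38.7 FPKM in ESC XX and 4.10 FPKM in round sperm. A129-2 was the highest library and AOS-14 the lowest of the stem cell libraries, and none overlapped round sperm. The log2 difference of 2.41 ± 0.88 did not pass (limma, adjusted p = 0.104). Of 8 neuronal markers, 1 or 2 reached 1 FPKM in each stem cell library, and Stmn2 gave most of their sum, at 74.7 to 109 FPKM there. Their part in the Tubb3 level was not tested.

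**Figure D2:**
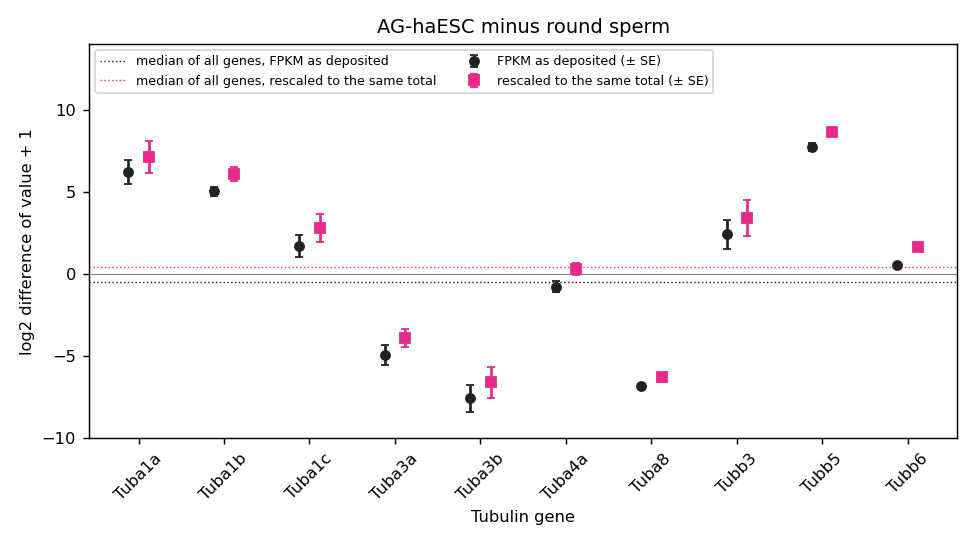
Difference of log2(value + 1), AG-haESC (3 lines) minus round sperm (1 library), for the 10 members, as deposited FPKM and after rescaling to the same total; bars are the SE from limma and dotted lines the medians of all genes. Tuba1a, Tuba1b and Tubb5 stand above both medians on both scales, Tuba3a, Tuba3b and Tuba8 stand below, and Tuba4a changes sign between scales.

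A share within 1 library does not depend on the scaling between libraries or tables. In round sperm, Tuba3a took 48.9% of the alpha sum, Tuba3b 42.9%, Tuba8 5.45%, Tuba4a 1.98%, Tuba1c 0.589%, Tuba1b 0.233% and Tuba1a 0.0355%. The Tuba3 pair thus made up 91.7% and the Tuba1 genes 0.857%. In the AG-haESC lines A129-2, AOS-14 and AOS-16, the Tuba1 genes made up 87.7%, 78.9% and 86.1% and the Tuba3 pair 6.01%, 12.7% and 10.1%. In ESC XX the Tuba1 genes made up 92.5% and 93.2% and the Tuba3 pair 2.42% and 2.18%. In all stem cell libraries Tuba1b came first and Tuba1a next, the isotypes with the smallest shares in round sperm.

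Within the AG-haESC lines the shares varied. Tuba1b took 37.9%, 50.4% and 47.2%, and Tuba1a took 34.2%, 19.3% and 31.4%, so the pair was close in A129-2 and farthest apart in AOS-14. Tuba1c took 15.6%, 9.13% and 7.56%, with A129-2 highest. Tuba3a took 4.38%, 11.4% and 9.71%, and ranked above Tuba1c and Tuba4a in both AOS lines and below both in A129-2. Tuba3b took 1.63%, 1.35% and 0.373%, Tuba4a 6.24%, 8.35% and 3.77%, and Tuba8 between 0.0414% and 0.0626%. As means, Tuba1b stood at 45.2 ± 6.47% (SD, n = 3), Tuba1a at 28.3 ± 7.89%, Tuba1c at 10.8 ± 4.27% and Tuba3a at 8.49 ± 3.66%; Tuba1c and Tuba3a do not differ beyond their spread.

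The ESC XX libraries gave nearly equal shares. Tuba1b took 49.7% and 49.5%, Tuba1a 30.5% and 31.6%, Tuba1c 12.3% and 12.2%, and Tuba4a 5.03% and 4.54%. Tuba3a took 2.39% and 2.15%, Tuba8 0.0592% and 0.0543%, and Tuba3b 0.0340% and 0.0286%. The AG-haESC shares lay above both ESC XX libraries for Tuba3a and Tuba3b and overlapped them for the other 5 isotypes. The summed Tuba1 share was lower in AG-haESCs, at 84.2 ± 4.70% against 92.9 ± 0.517% (SD, n = 2), and the summed Tuba3 share was higher, at 9.61 ± 3.39% against 2.30 ± 0.170%, both without overlap. An exact two-sided permutation test of 3 against 2 libraries cannot give a p below 0.2, nor one of 3 against 1 below 0.5, so no share was tested.

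**Figure D3:**
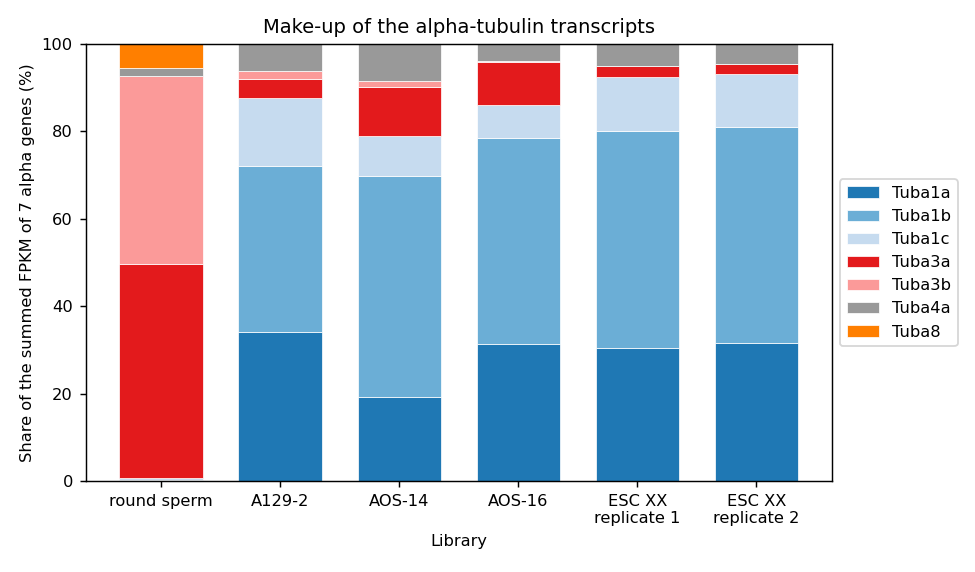
Share of each of the 7 alpha isotypes in the alpha sum (percent of summed FPKM), as stacked bars for the 6 libraries. Tuba3a and Tuba3b fill 91.7% of the round sperm bar, and Tuba1a, Tuba1b and Tuba1c fill between 78.9% and 93.2% of the stem cell bars.

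AG-haESCs were set against ESC XX to compare haploid lines with a sperm genome with embryonic stem cells in the same inhibitors. The ESC XX values come from tables scaled separately, so no test was run. A gene was called where the mean log2(TPM + 1) differed by at least 1, after the median difference of -0.10 was removed, and the groups did not overlap. The rule kept 9 of the 10 members, since Tuba8 was under 1 FPKM in all 5 libraries. It called Tuba3b higher and Tuba1a, Tuba1b and Tuba1c lower in AG-haESCs, beside 15.6% of all genes kept, 7.37% as higher and 8.28% as lower. Tuba3b was kept through the AG-haESC lines alone, being under 1 FPKM in both ESC XX libraries. Without AOS-14, 1 member was called, Tuba3b, and 15.7% of all genes. No overlap at any size occurred in 50.6% of genes.

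Tuba3b differed by 2.68 ± 0.96 (log2, mean and SD of the lines). The single lines differed by 3.70 (A129-2), 2.56 (AOS-14) and 1.79 (AOS-16). All lines were above ESC XX. The ESC XX level rested on about 8.00 and 7.99 fragments, against about 133, 167 and 37.4 fragments in the lines. With a pseudocount of 0.1 in place of 1 the difference was 3.77. Tuba3a lay above ESC XX in all lines at 0.33, 0.73 and 1.44, with a mean of 0.83 ± 0.56 that is below the size threshold; without A129-2 it was 1.17 and called. In TPM the sum of the pair was 1.99-fold higher in AG-haESCs than in ESC XX. The 6 spermatocyte markers also summed higher in the lines, at 52.4, 37.5 and 27.8 FPKM against 10.1 FPKM in both ESC XX libraries. Sycp1, Sycp3 and Hormad1 gave most of these sums, and Pgk2 reached at most 0.0364 FPKM in the lines. The part of the 6 markers was not tested. Of the 8 spermatid markers, 5, 0 and 6 were listed at 0 in A129-2, AOS-14 and AOS-16.

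The 3 Tuba1 genes were lower in each line than in either ESC XX library, and most so in AOS-14. Tuba1a differed by -0.47, -2.26 and -0.62 in A129-2, AOS-14 and AOS-16 (mean -1.12 ± 0.99). Tuba1b differed by -0.997, -1.56 and -0.70 (mean -1.09 ± 0.43), and Tuba1c by -0.25, -1.98 and -1.31 (mean -1.18 ± 0.87). Without AOS-14 the means were -0.63, -0.94 and -0.87, all short of the threshold. In TPM the Tuba1 sum was 2.14-fold higher in ESC XX than in AG-haESCs. Of the other members, Tuba4a at -0.65, Tubb5 at -0.56 and Tubb6 at -0.26 lay below ESC XX in all lines without reaching the threshold. Tubb3 at -0.72 ± 1.14 overlapped, and without A129-2 it was -1.18 and called. The 8 feeder fibroblast markers, among them Col1a1 and Vim, summed to 1078 and 1074 FPKM in ESC XX and to 143, 159 and 194 FPKM in the lines, with 4, 8 and 7 of 8 at 1 FPKM or more in the lines. Fibroblasts also express Tuba1 genes and Tubb6, and the part of feeder RNA in these differences was not tested.

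**Figure D4:**
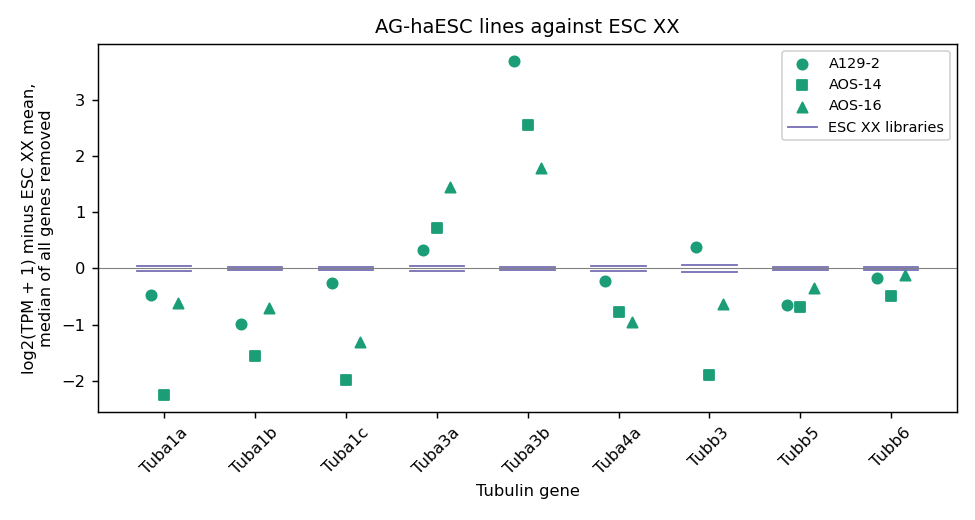
Difference of log2(TPM + 1) from the ESC XX mean, with the median of all genes removed, for each AG-haESC line and the 9 members kept. All 3 lines lie above 0 for Tuba3a and Tuba3b and below 0 for Tuba1a, Tuba1b and Tuba1c, with AOS-14 lowest for each of the Tuba1 genes.

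Between the 3 AG-haESC lines, Tuba3b varied most, with a highest level 4.13 times the lowest in FPKM, followed by Tubb3 at 3.63 times and Tuba1a at 2.50 times. Tubb6 at 1.11 times, Tubb5 at 1.36 times and Tuba1b at 1.40 times varied least. The 445 genes of chromosome 8 that were compared stood a median of 0.93 higher (log2) in A129-2 than in the AOS lines, relative to the other autosomes, whose medians lay between -0.08 and 0.09. Tubb3, the member on chromosome 8, was 1.47 higher in A129-2. Tuba1c at 1.22 and Tuba1a at 0.79 were also higher there although the median of their chromosome 15 was -0.04, and Tuba3a was 0.93 lower. The part of chromosome 8 in the Tubb3 difference, and of the short RNA genes in AOS-14, was not tested.

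The other tubulins were described from a list of 10 genes in the tables, of which 8 passed the filter. Of these, 2 were called higher in AG-haESCs than in round sperm and 3 lower, with a median difference of 0.60; in TPM 4 were higher and 3 lower. Over all genes tested 61.9% were called, so the 5 of 8 called here lie near the background. Tubb4b, a beta isotype of ciliary axonemes, measured 2513 FPKM in round sperm, 188, 154 and 95.5 FPKM in the lines, and 362 and 359 FPKM in ESC XX. It fell from round sperm to AG-haESCs by 4.15 on the log2 scale (limma, adjusted p = 0.0109), and without AOS-14 the call was lost (limma, adjusted p = 0.0646). Tubb2b, a beta isotype of developing neurons, measured 152, 116 and 138 FPKM in the lines and 0.160 FPKM in round sperm. Its log2 difference was 6.87, with a direction set by the filter, which it passed through the AG-haESC lines alone. Tubb2a differed by 2.77 (limma, adjusted p = 0.00862), a call that was lost without AOS-14 (limma, adjusted p = 0.0521).

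Tubd1, delta-tubulin of centrioles and basal bodies, measured 36.8 FPKM in round sperm and 1.93, 1.85 and 2.37 FPKM in the lines, a log2 difference of -3.64 (limma, adjusted p = 0.00147). Tubal3, an alpha-like gene, had 2.41 FPKM in round sperm and a listed value of 0 in the other 5 libraries, so its call rests on passing the filter through round sperm alone and on 3 equal listed zeros. Tubg1, gamma-tubulin of the nucleating ring, differed by 0.86, under the size threshold in FPKM, and was called in TPM at 1.92 (limma, adjusted p = 0.0309). Tube1, epsilon-tubulin of centrioles, differed by 1.49 and did not pass in FPKM (limma, adjusted p = 0.0739), but passed in TPM at 2.39 (limma, adjusted p = 0.0279). Tubg2 at 0.33 did not pass (limma, adjusted p = 0.710), and Tubb1 and Tubb4a were not tested for low levels. Against ESC XX, Tubb4b was lower in AG-haESCs at -1.46 and Tube1 higher at 1.01, just past the threshold. The Tube1 call was lost without AOS-14 (0.97), without AOS-16 (0.81), without ESC XX replicate 2 (0.97), with no filter (0.96) and with quantile normalization (0.997).

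CCT, the ring chaperonin that folds newly made tubulin and actin, had 1 of 9 subunit genes higher and 4 lower in AG-haESCs than in round sperm, with a median of -1.12; 5 of 9 called is near the 61.9% of all genes. Cct6b, a subunit variant of testis, stood at 451 FPKM in round sperm and between 0.410 and 0.632 FPKM in the lines, and differed by -8.19. Cct6b passed the filter through round sperm alone, so its direction was set by the filter. Tcp1 differed by -3.16 and Cct4 by -1.29, the latter lost in TPM at -0.20, whereas Cct8 rose by 1.31. In TPM 3 of the 9 were higher and 2 lower. Prefoldin, which hands unfolded tubulin to CCT, had 3 of 5 genes higher and 1 lower: Vbp1 differed by 3.60, Pfdn2 by 2.69, Pfdn4 by 2.21 and Pfdn5 by -2.91. Of the 7 genes for the cofactors that join alpha and beta chains, 1 was higher, Tbcd at 1.55, and 4 were lower. The lower ones included Tbcc at -3.65, Tbce at -1.36 and Tbcel at -1.21. In TPM 1 was higher and 1 lower, since 3 lost their calls, Tbce and Tbcel among them. The background for each of these lists is 61.9% of all genes called in FPKM and 58.7% in TPM.

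Of the genes for enzymes that modify tubulin tails and the lysine in the microtubule lumen, 24 of 29 were lower in AG-haESCs than in round sperm and 3 were higher, with a median of -4.71; in TPM 22 were lower and 3 higher. Of the 29, 11 passed the filter through round sperm alone and 3, Ttl, Ttll12 and Hdac6, through AG-haESCs alone, so their direction was set by the filter. Of the 15 that reached 1 FPKM in both groups, 13 were lower and 0 higher. Of all genes tested, including those that passed through 1 group alone, 39.1% were called lower in FPKM and 28.1% in TPM. The share among all genes at 1 FPKM in both groups was not computed. Ttll13, Ttll10 and Ttll9, members of the family of ligases that add glutamate or glycine, differed by -8.51, -8.23 and -8.03, from 475, 303 and 296 FPKM in round sperm to under 0.5 FPKM in every line. The genes called higher were those that passed through AG-haESCs alone. They were Ttl, the ligase that restores the tyrosine of alpha-tubulin, at 2.45, Ttll12 at 3.71, and Hdac6, a deacetylase of alpha-tubulin, at 6.17. Hdac6 measured 68.1, 114 and 73.7 FPKM in the lines, 19.3 and 20.4 FPKM in ESC XX and 0.166 FPKM in round sperm, so all lines were also above ESC XX, by 1.94. Agbl3, of the family that removes glutamate, was the other gene of the list higher than in ESC XX, at 1.54. At 0.160 and 0.278 FPKM in ESC XX, Agbl3 passed the filter of that comparison through the AG-haESC lines alone, which set its direction.

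Genes of the gamma-tubulin ring and of augmin, which start new microtubules, had 6 of 17 higher and 6 lower (8 and 4 in TPM) and a median of 0.80; 12 of 17 called is also near the 61.9% of all genes. Tubgcp5 differed by 3.28 and Haus8 by 2.21, and Cdk5rap2 by -4.51. Tubgcp5, at 0.132 FPKM in round sperm, passed the filter through the AG-haESC lines alone, which set its direction. Of 21 genes of microtubule dynamics, 5 were higher and 8 lower (8 and 6 in TPM), with a median of -0.39. Their share called was also near the 61.9% of all genes. Mapre1, which follows growing plus ends, differed by 2.62 and Clasp2, which stabilises them, by 2.42, while Mapre3, a relative of Mapre1, differed by -4.37. Stmn2 stood at 74.7, 84.7 and 109 FPKM in the lines and was listed at 0 in round sperm, so it also passed through the lines alone. Several of these calls were lost when 1 line was left out (limma, adjusted p between 0.0522 and 0.142), with the direction kept. Without A129-2 these were Cct4, Pfdn2 and Pfdn4. Without AOS-14 they were Cct4, Tbcc, Tbcd, Tbcel, Ttl, Haus8 and Mapre3. Without AOS-16 they were Cct4, Cct8, Pfdn2, Pfdn4, Pfdn5, Tbce, Ttl and Haus8. Against ESC XX, no gene of the CCT, prefoldin or cofactor lists was called. Of the ring and augmin genes 1 of 17 was higher, and of the dynamics genes 1 of 20 kept was lower. Of all genes kept, 15.6% were called.

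**Figure D5:**
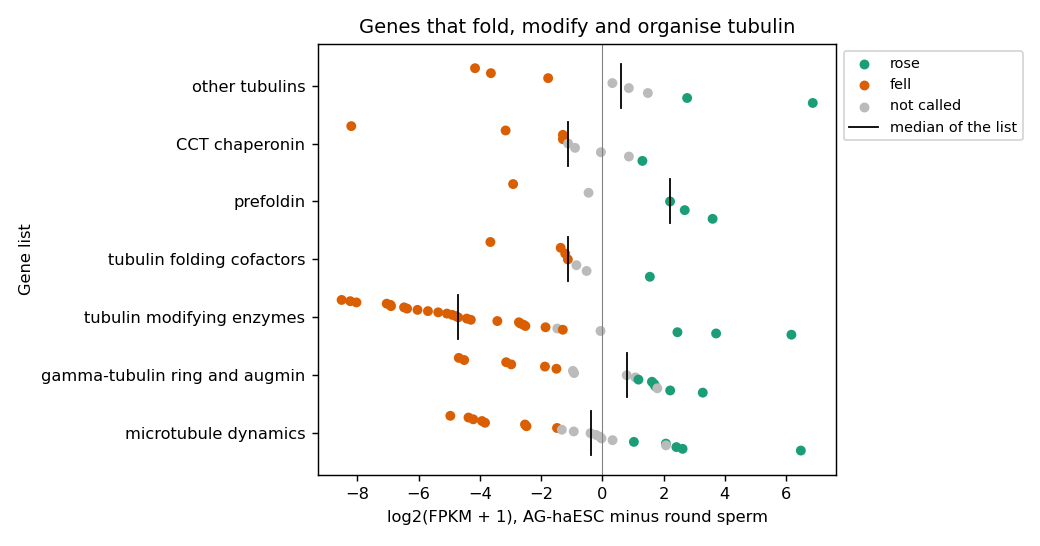
Difference of log2(FPKM + 1), AG-haESC minus round sperm, for each gene tested in the 7 pathway lists, with 1 point per gene and a line at the median of each list. The modifying enzymes have the lowest median, at -4.71.

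The genes whose levels over the 6 libraries were most like those of Tuba1b, by Euclidean distance of log2(TPM + 1) among 16303 genes, were Cdk4 (distance 0.740), Fkbp3 (1.10), Prdx2, S100a11 and Sparc (1.204). Cdk4 measured 389, 384 and 507 TPM in the lines, 688 and 665 TPM in ESC XX and 4.47 TPM in round sperm, where Tuba1b measured 419, 283 and 513 TPM, 880 and 910 TPM, and 4.90 TPM. For Tuba3b they were Wfdc15a (1.70), 1700019A02Rik, Dmrtb1 (1.97), Mlf1 (2.10) and Syngr4 (2.18), all farther from it than the 5 genes named for Tuba1b were from theirs. Wfdc15a measured 10.9, 10.6 and 2.92 TPM in the lines, 1.69 and 1.11 TPM in ESC XX and 406 TPM in round sperm. Distances over 6 libraries of 3 groups mostly follow the differences between groups.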

How the data were processed

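Messenger RNA was sequenced in 6 libraries, from polyA RNA with a stranded kit per the labels. TopHat2 2.0.13, Cuffdiff 2.2.1 and the build mm9 are named in the submitters' processing notes; strand use and normalization between libraries are not stated there. FPKM is the unit of the deposited values; the header of the table holding AG-haESC and round sperm does not name the unit, which was taken from the tool and the size of the values. No counts were available, so depth was estimated from the steps of low values in 2963 genes with 1 annotated transcript, shares carry no counting interval and fragment numbers are approximate.

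AG-haESC and round sperm were compared within their table on log2(FPKM + 1), two-sided, by limma 3.58.1 (R 4.3.3) allowing for a trend of variance with level. Differences on that scale understate the change of low genes. ESC XX values, in tables scaled apart, were compared by size and overlap. The p-values measure the spread between these lines, moderated by limma with the variances of all genes tested. The ESC XX libraries differed by 1.37 times counting noise, against 11.4 to 29.8 times for pairs of AG-haESC lines, so their spread may be technical.

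All members, the other tubulins, and in each other list up to 3 called genes with the highest and the lowest difference could be named, with the 5 genes nearest to Tuba1b and to Tuba3b and the markers. Members and lists were chosen with earlier results of these data known. Sequences came from RefSeq promoters (GRCm38.p6) and coding sequences from GENCODE (GRCm38), other builds than mm9, so they were matched by symbol. The limma script was tested on simulated data in which the round sperm library was given the spread of the AG-haESC lines. That equal spread is an assumption of the fit, and the simulation could not test it. Other pseudocounts, filters, scalings and each library left out were tried. Protein sequences were not used here. A gene that the naming rule would name is not reported here.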

Additional observations from a re-analysis of the deposited data

How the results depend on the processing

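The difference of Tuba4a between AG-haESCs and round sperm, -0.78 in FPKM, turned to 0.29 in TPM, 0.26 in TPM without short RNA genes and 0.55 with quantile normalization; it passed under none of them, and the all-gene median was -0.49 in FPKM and 0.40, 0.37 and 0.32 under these scalings. The number of members called against ESC XX was 4, and ranged from 1 (without AOS-14) to 6 (without A129-2) when a library was left out; the cause was not tested. The number of genes called against round sperm ranged from 7780 to 9409 with 1 AG-haESC line left out, against 9864 with all 3. Against round sperm, 4 alternatives gave a call that the main setting did not (Tuba1c and Tubb6, under other scalings) and 3 took one away (Tuba1a, Tuba3a and Tuba3b, with 1 line left out). Against ESC XX, Tuba3b with the smaller pseudocount and Tubb5 with quantile normalization, at -0.78, moved by more than the spread of the lines, Tuba1b was -0.99 and not called in FPKM as deposited, Tuba1a, Tuba1b and Tuba1c were not called without AOS-14, and Tuba3a and Tubb3 were called without A129-2. Leaving out the round sperm library was not run, since it is the only one. No paired analysis was possible because the AG-haESC lines carry no replicate number in the labels and round sperm has 1 library. Low depth limits Tuba8 in the stem cells and Tuba3b in ESC XX.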

Other observations

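The balance of alpha and beta transcripts differed between libraries. The summed FPKM of the 7 alpha isotypes over that of 8 beta genes (Tubb1, Tubb2a, Tubb2b, Tubb3, Tubb4a, Tubb4b, Tubb5 and Tubb6) was 1.01 in round sperm, 0.639, 0.423 and 0.659 in A129-2, AOS-14 and AOS-16, and 0.678 and 0.716 in ESC XX. All stem cell libraries were below round sperm, and AOS-14 was the lowest.

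In round sperm, Tubb4b made up 97.7% of the beta sum and Tubb5 0.0467%. In the AG-haESC lines, Tubb4b made up 21.3%, 16.4% and 10.6% and Tubb5 43.1%, 55.0% and 55.8%, and in ESC XX Tubb4b made up 27.3% and 27.6% and Tubb5 48.8% and 48.0%. The Tubb4b share was lower in every AG-haESC line than in ESC XX. Of Tubb3, Tubb5 and Tubb6 alone, Tubb6 took 89.2% in round sperm and between 9.27% and 12.3% in the other libraries.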
